A study of Homo sapiens with 4 samples.

Results

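The HOX gene clusters were described in HG00731, a lymphoblastoid cell line (LCL), by what SMC1 FA-EGS HiChIP and CTCF HiChIP recorded over them. The members were the 39 protein-coding HOXA, HOXB, HOXC and HOXD genes among 19970 protein-coding genes of GENCODE release 44. To these were added the peaks with a summit in 1 of the 4 clusters extended by 100 kb on each side, and the loops with an anchor there. The windows held 82 of 96855 SMC1 peaks and 64 of 62869 CTCF peaks. Of the loops, 137 of 28012 labelled SMC1 and 268 of 80487 labelled CTCF had an anchor there.

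HiChIP joins DNA ends that lie close together in fixed nuclei and then enriches the fragments bound by a protein, so that it gives both binding peaks and contacts, called loops, between distant anchors. For SMC1 the cells were cross-linked with formaldehyde (FA) followed by ethylene glycol bis(succinimidyl succinate) (EGS), and for CTCF with FA alone, so the target and the fixation cannot be told apart. Each target had 2 replicates, which the authors pooled into 1 peak list and 1 loop list. The values below are therefore those of single lists from 1 LCL, with no spread between replicates and no test, and the 95% Wilson intervals cover counting error only. Neighbouring HOX genes share peaks and neighbouring loops share anchors, so the members are not independent of each other. The number of loops in each loop list is the one that the study gives for the other target, and the loop lists are called by their labels throughout.

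HOX genes encode homeodomain transcription factors that give position along the body axis, and within each cluster they stand in the order of their paralog groups, from group 1 at the anterior (3′) end to group 13 at the posterior (5′) end, all transcribed in the same direction. CTCF is a zinc finger protein that binds a directional DNA motif, and cohesin, the ring complex that holds SMC1, is stalled by CTCF while it extrudes chromatin loops. CTCF sites within HOX clusters are known as boundaries between active and Polycomb-repressed HOX genes. Blood cells use mainly HOXA and HOXB genes, while HOXD genes are known above all from limb and trunk. Expression was not measured here. Of the B cell genes MS4A1, CD79A, CD79B, PAX5 and EBF1, 4 of 5 had an anchor of a loop labelled SMC1 within 1 kb of the start, all but MS4A1, beside 21.6% of all protein-coding genes, and 5 of 5 had one labelled CTCF, beside 43.1%.

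The HOXA cluster (chr7:27092993-27200091, hg38) holds 11 genes on the minus strand within 107 kb. The HOXB cluster (chr17:48528526-48728750) holds 10 genes on the minus strand within 200 kb, since HOXB13 stands apart from the others. The HOXC cluster (chr12:53938831-54056030) holds 9 genes on the plus strand within 117 kb, and the HOXD cluster (chr2:176092721-176190907) holds 9 genes on the plus strand within 98.2 kb.

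The sequences shown are those of CTCF motifs under strong CTCF peaks of the clusters. The bins with the most loops of HOXB, HOXC and HOXD hold such motifs, while those at HOXA6 and HOXA10 met no loop. Not every strong peak is shown. Left out in HOXB, among others, are a stronger peak between HOXB9 and HOXB13 and the peak between HOXB4 and HOXB5. All loops from the bin of the latter ran against its motif. A 19 bp CTCF motif of 11.4 bits was learned from the 3000 strongest CTCF summits outside the HOX windows, and both strands of each peak were scored with it. Each sequence is shown 5′ to 3′ in the direction of its motif, read from hg38, with the motif in capitals.
HOXA6 start, plus strand, chr7:27150930-27150968: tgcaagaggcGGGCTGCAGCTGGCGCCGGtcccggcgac
HOXA10 start, minus strand, chr7:27179896-27179924: gcagcCGCCACGAGATGGCGCACTtccga
HOXA13, plus strand, chr7:27196362-27196390: cttgtCAACGCGAGGTGGCGCCCTtgatc
HOXB5 to HOXB6, minus strand, chr17:48594026-48594064: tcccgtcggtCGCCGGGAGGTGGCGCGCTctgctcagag
HOXB9 to HOXB13, plus strand, chr17:48678588-48678626: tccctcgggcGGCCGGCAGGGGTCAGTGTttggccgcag
HOXC8 to HOXC9, plus strand, chr12:54006110-54006148: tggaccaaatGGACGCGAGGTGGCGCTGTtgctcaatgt
HOXC5 to HOXC6, plus strand, chr12:54032730-54032768: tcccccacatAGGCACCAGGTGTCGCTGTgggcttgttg
HOXD12 to HOXD13, minus strand, chr2:176097744-176097782: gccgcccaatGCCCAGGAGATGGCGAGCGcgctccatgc
HOXD8 to HOXD9, plus strand, chr2:176127193-176127231: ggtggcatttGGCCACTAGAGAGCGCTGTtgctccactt
HOXD4 to HOXD8, plus strand, chr2:176140633-176140671: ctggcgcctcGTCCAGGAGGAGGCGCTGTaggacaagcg
Of these 10 sites, the ones at HOXA10 and HOXA13 lie in untranslated regions and are shown with shorter flanks, the HOXA6 site lies in an exon of the antisense gene HOXA-AS3, and the HOXD12 to HOXD13 site lies between genes. The other sites lie in introns, among them introns of HOXB3, HOXC4, HOXC6, HOXD3 and HOXD-AS2. Each motif is the best match in its whole peak and need not lie at the summit. Its centre was 14 bp from the summit at HOXA10, the nearest of the 10. It was 261 bp away at HOXD4 to HOXD8 and 367 bp away at HOXC5 to HOXC6, the farthest. A motif match describes the sequence and does not show which base CTCF touched, nor that the peak arose at that motif.

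Peaks stood more densely in the HOX windows than along the genome. There were 62 SMC1 peaks per Mb against 33.3 in the genome, and 48.4 CTCF peaks per Mb against 21.6. HOXB was the densest window for both targets, with 99.9 SMC1 and 75 CTCF peaks per Mb. HOXD was the sparsest for CTCF, with 30.2 per Mb, and HOXA the sparsest for SMC1, with 39.1 per Mb. Gene-dense regions in general were not set beside these densities.

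The enrichment of the HOX peaks was within the usual range of each list. The fold enrichment at the summit, a ratio to the local background, had a median of 3.48 for SMC1 peaks in the windows and 3.32 over all SMC1 peaks. For CTCF the median was 3.95 in the windows and 5.01 over all CTCF peaks. HOXD had few CTCF peaks, but its median fold enrichment was 6.65, above the 3.98 of HOXA, 4.1 of HOXB and 3.46 of HOXC.

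**Figure D1:**
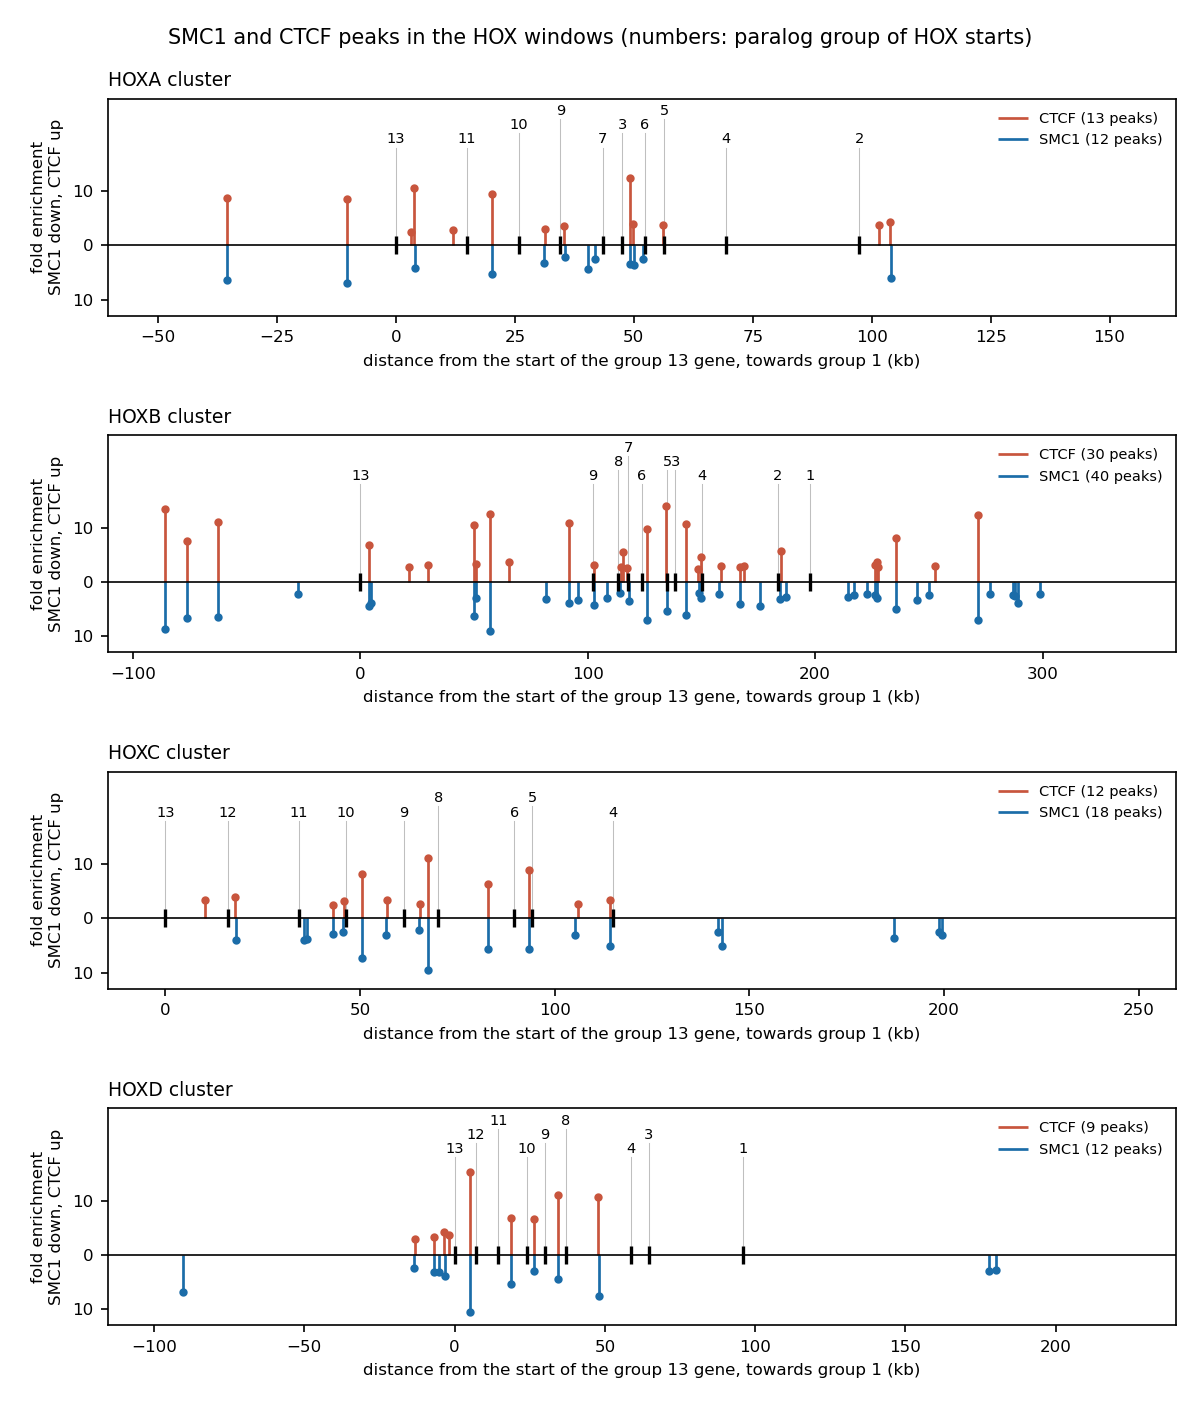
Peaks of SMC1 (down, blue) and CTCF (up, red) in the 4 HOX windows, each drawn at its distance in kb from the start of the group 13 gene with its fold enrichment as the height. Numbers and ticks mark the starts of the canonical transcripts of HOX genes; the highest CTCF peak reaches 15.2 between HOXD12 and HOXD13, and the right end of the HOXD cluster holds no peak.

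In HOXA the strong CTCF peaks lay at the posterior end and at the middle. The CTCF peak with the highest significance, given as -log10 of its q-value, was in HOXA13, the gene of the distal limb and genital tubercle, with a fold enrichment of 10.5 and a -log10 q of 131. The peak at the start of HOXA10, a gene of the posterior trunk and uterus, had a fold enrichment of 9.42 and a -log10 q of 102. The peak at the start of HOXA6 had the highest fold enrichment in this cluster, 12.3, and a -log10 q of 91.8. All 3 overlapped SMC1 peaks, with SMC1 fold enrichments of 4.28 at HOXA13, 5.32 at HOXA10 and 3.48 at HOXA6. The strongest SMC1 peak of the window, with a fold enrichment of 7.03 and a -log10 q of 96.7, lay outside the genes, 10.2 kb beyond the HOXA13 start, and a CTCF peak of 8.6 overlapped it.

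A long stretch of the anterior HOXA genes was free of SMC1 peaks. It ran for 52.1 kb up to the first peak near HOXA6, and so covered the bodies of HOXA2, HOXA4 and HOXA5. In the CTCF list the corresponding gap was 45.4 kb long.

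In HOXB the strongest CTCF peak of any HOX cluster by significance lay 327 bp from the start of HOXB5. Its fold enrichment was 14 and its -log10 q 400, and the SMC1 peak that overlapped it had a fold enrichment of 5.37 and a -log10 q of 133. Between HOXB9 and HOXB13, in introns of LINC02086, a CTCF peak of 12.5 with a -log10 q of 279 was joined by an SMC1 peak of 9.15. A further CTCF peak in the same gene had a fold enrichment of 10.5 and a -log10 q of 201, over an SMC1 peak of 6.22. Between HOXB4 and HOXB5 a CTCF peak of 10.6 lay over an SMC1 peak of 6.15 with a -log10 q of 190. Beyond HOXB13, at the neighbouring gene TTLL6, the CTCF peak reached 13.5 and the SMC1 peak 8.75, with a -log10 q of 318 for SMC1. In the other flank, beyond HOXB1, a CTCF peak of 12.3 met an SMC1 peak of 7.12 with a -log10 q of 190.

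The flank of HOXB beyond HOXB1 held SMC1 peaks with and without a CTCF peak. Of 14 SMC1 peaks there, 10 overlapped no CTCF peak, and their fold enrichments ranged from 2.19 to 3.97. Over the whole list 51192 of 96855 SMC1 peaks overlapped none. In the flank of HOXC beyond HOXC4 all 5 SMC1 peaks overlapped no CTCF peak, and they reached at most 5.04. Beyond HOXD1 both SMC1 peaks, of 3.05 and 2.76, also stood without CTCF. The flanks on the group 13 side differed. Beyond HOXA13 the SMC1 peaks, of 7.03 and 6.32, overlapped CTCF peaks, while beyond HOXB13 and HOXD13 most did and some did not.

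In HOXC the peaks of both targets followed the middle of the cluster. The strongest CTCF peak lay between HOXC8 and HOXC9, with a fold enrichment of 11.2 and a -log10 q of 147. The SMC1 peak over it had a fold enrichment of 9.61 and a -log10 q of 244, the highest of the HOXC window. The next CTCF peaks lay in HOXC10, with a fold enrichment of 8.23, and between HOXC5 and HOXC6, with 8.88, over SMC1 peaks of 7.38 and 5.57. The posterior end was poor in peaks, since the SMC1 peak nearest to the start of HOXC13, a hair and nail keratin regulator, was 18057 bp away, and the nearest CTCF summit 10282 bp.

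In HOXD 5 CTCF peaks stood within the cluster, and an SMC1 peak overlapped each of them. The peak between HOXD12 and HOXD13 had the highest CTCF fold enrichment of all HOX windows, 15.2, with an SMC1 fold enrichment of 10.5, which was also the highest of its list there. The peak between HOXD4 and HOXD8, in an intron of HOXD3, had a CTCF fold enrichment of 10.7 and an SMC1 fold enrichment of 7.67. The peak between HOXD8 and HOXD9 had 11.1 for CTCF and 4.4 for SMC1. From the peak in HOXD3 onwards, past HOXD4 and HOXD1, no SMC1 peak was called for 130 kb, and no CTCF peak was called up to the end of the window.

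Most CTCF peaks of the windows coincided with SMC1 peaks. An SMC1 peak overlapped 51 of 64 CTCF peaks, 79.7% (95% interval 68.3 to 87.7), beside 75.9% of all CTCF peaks. In the other direction a CTCF peak overlapped 49 of 82 SMC1 peaks, 59.8% (48.9 to 69.7), beside 47.1% of all SMC1 peaks. Within the clusters, without their flanks, the latter share was 74%. The median fold enrichment was 4.28 for SMC1 peaks over a CTCF peak and 2.94 for the 33 others. CTCF peaks over an SMC1 peak had a median of 6.38, and the 13 others 3.09. The stronger peaks were thus mostly the shared ones, and the same held over both whole lists, with medians of 4.65 and 2.76 for SMC1 and of 6.26 and 3.3 for CTCF.

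The CTCF motif was found within 50 bp of the summit at 31 of 64 CTCF peaks at a minimum of 7 bits, 48.4%, beside 35.5% of all CTCF peaks. Over the whole width of the peaks, a motif of at least 13 bits was found in 24 of 64 peaks, 37.5%, beside 34% of all CTCF peaks and 4.7% of windows of the same widths placed 5 kb to the right. The motif lay within 50 bp of the summit in 7 of these 24. Of the 24, 23 overlapped an SMC1 peak, 95.8% (79.8 to 99.3) beside 91.3% of all CTCF peaks with such a motif, and 19 lay within the clusters. In the clusters 9 of the 19 pointed along HOX transcription, towards the group 1 side, and 10 against it. In HOXD the motif between HOXD12 and HOXD13 pointed towards the group 13 side, and both strong motifs further on pointed towards the group 1 side.

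Within 1 kb, the share of HOX starts with an SMC1 peak lay below that of all protein-coding genes, while for CTCF the interval held the share of all genes. At a wider distance the interval for SMC1 held it as well. An SMC1 peak lay within 1 kb of the start of 14 of 39 HOX genes, 35.9% (95% interval 22.7 to 51.6), beside 56.2% of all protein-coding genes. A CTCF peak lay there at 10 of 39, 25.6% (14.6 to 41.1), beside 37.2%. Within 2500 bp the counts were 24 for SMC1, 61.5% (45.9 to 75.1) beside 64% of all genes, and 22 for CTCF, 56.4% (41 to 70.7) beside 46.5%, and both intervals held the share of all genes. With only peaks of a -log10 q of at least 10, within 1 kb, they were 9 for SMC1, 23.1% (12.6 to 38.3) beside 50.1%, and 6 for CTCF, 15.4% (7.25 to 29.7) beside 28%. Both peaks were present at 9 starts, SMC1 alone at 5, CTCF alone at 1, and neither at 24. HOX gene models overlap and several start far upstream of their main transcript, so the canonical transcript starts were also used. At those, 12 of 39 had an SMC1 peak, beside 58.5% of all genes, and 10 of 39 a CTCF peak, beside 38.5%. The genes were not all the same at both kinds of start. At the canonical start HOXA10 and HOXC9, 5941 and 5266 bp away, had neither peak, HOXC6 and HOXA7, 37816 and 1261 bp away, had no SMC1 peak, and HOXA6, 2829 bp away, had no CTCF peak. HOXC4 and HOXA9 had both peaks there and none at the gene-model start, and HOXB7 had a CTCF peak of 2.57 beside SMC1. That the lower share within 1 kb is particular to HOX genes was not tested, and neither was the part that transcription plays in it.

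**Figure D2:**
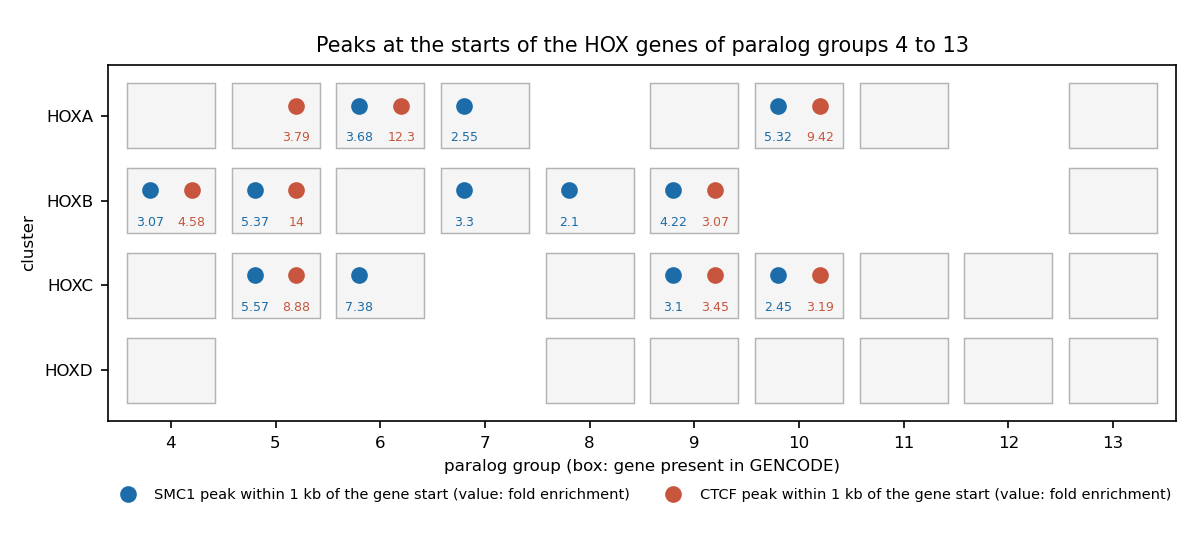
HOX genes of paralog groups 4 to 13 by group (columns) and cluster (lines of boxes), with a blue point for an SMC1 peak and a red point for a CTCF peak within 1 kb of the gene-model start, and the fold enrichment under each point. The points lie in groups 4 to 10 of HOXA, HOXB and HOXC, while all HOXD boxes and all boxes of groups 11 to 13 are empty.

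Among the anterior genes, groups 1 to 3, HOXB2, a hindbrain patterning gene, had an SMC1 peak alone, at a fold enrichment of 3.16. HOXA2, HOXA3, HOXB1, HOXB3, HOXD1 and HOXD3 had neither, with the nearest SMC1 summit between 1636 bp away at HOXA3 and 47953 bp away at HOXD1.

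The central genes, groups 4 to 8, had an SMC1 peak at 8 of 15 starts, 53.3% (30.1 to 75.2) beside 56.2% of all protein-coding genes, and a CTCF peak at 5, 33.3% (15.2 to 58.3) beside 37.2%. Both intervals held the share of all genes. The group 5 genes HOXA5, HOXB5 and HOXC5 all had a CTCF peak, with fold enrichments of 3.79, 14 and 8.88. HOXB5 and HOXC5 also had an SMC1 peak, of 5.37 and 5.57, while HOXA5 was the 1 HOX gene with CTCF alone. HOXB4, known for the expansion of blood stem cells, had an SMC1 peak of 3.07 and a CTCF peak of 4.58. HOXA6 had both peaks, and HOXC6, HOXA7, HOXB7 and HOXB8 had an SMC1 peak alone, of 7.38, 2.55, 3.3 and 2.1. The peak counted for HOXC6 lies in HOXC10. HOXC4, HOXA4, HOXD4, HOXB6, HOXC8 and HOXD8 had neither. At the canonical starts HOXC4 had an SMC1 peak of 5.07 and a CTCF peak of 3.46, while HOXC6 and HOXA7 had neither peak. There HOXA6 had no CTCF peak, and HOXB7 had a CTCF peak of 2.57 beside SMC1.

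The posterior genes, groups 9 to 13, had an SMC1 peak at 4 of 16 starts and a CTCF peak at the same 4, which belonged to groups 9 and 10. This share, 25% (10.2 to 49.5), lay below the 56.2% of all protein-coding genes for SMC1, while for CTCF the interval held the 37.2% of all genes. HOXB9 had an SMC1 peak of 4.22 and a CTCF peak of 3.07, and HOXC9 had 3.1 and 3.45. HOXA10 had 5.32 and 9.42, and HOXC10 had 2.45 and 3.19. HOXA9, HOXD9 and HOXD10 had neither. At its canonical start, HOXA9, a gene of blood progenitors and leukaemia, had an SMC1 peak of 2.19 and a CTCF peak of 3.47. At their canonical starts HOXA10 and HOXC9 had neither peak. None of the 9 starts of groups 11 to 13 (HOXA11, HOXC11, HOXD11, HOXC12, HOXD12, HOXA13, HOXB13, HOXC13 and HOXD13) had a peak of either target within 1 kb.

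By cluster, HOXB had an SMC1 peak at 6 of 10 starts, HOXC at 4 of 9, HOXA at 4 of 11 and HOXD at 0 of 9, beside 56.2% of all protein-coding genes. CTCF peaks lay at 4 of 11 HOXA, 3 of 10 HOXB, 3 of 9 HOXC and 0 of 9 HOXD starts, beside 37.2%. For both targets the Wilson intervals of HOXA, HOXB and HOXC held the share of all genes, while that of HOXD, 0 of 9, reached 29.9%. In HOXD the strong CTCF peaks lay further from the starts than 1 kb, with their summits 1996 bp from the HOXD12 start, 2543 bp from the HOXD8 start and 3779 bp from the HOXD3 gene-model start.

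Loops from the HOX windows were unequally spread. The list labelled CTCF held 185 loops at HOXB, 50 at HOXC, 25 at HOXD and 8 at HOXA, and the list labelled SMC1 held 85, 42, 10 and 0. Per Mb, HOXB, HOXC and HOXD held 462, 158 and 83.8 loops labelled CTCF, and HOXA 26.1, beside 27.6 in the genome. For the label SMC1 these were 212, 132, 33.5 and 0, beside 9.62. A window counts a loop by either anchor, while the genome value counts each loop once. Loops at HOXD and HOXA were long, with a median span of 415 kb and 720 kb in the list labelled CTCF, against 140 kb at HOXB and 175 kb at HOXC. Over that whole list the median was 125 kb. The median number of read pairs per loop was 22 in the windows and 23 in the whole list labelled CTCF, and 18 and 21 in the lists labelled SMC1.

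**Figure D3:**
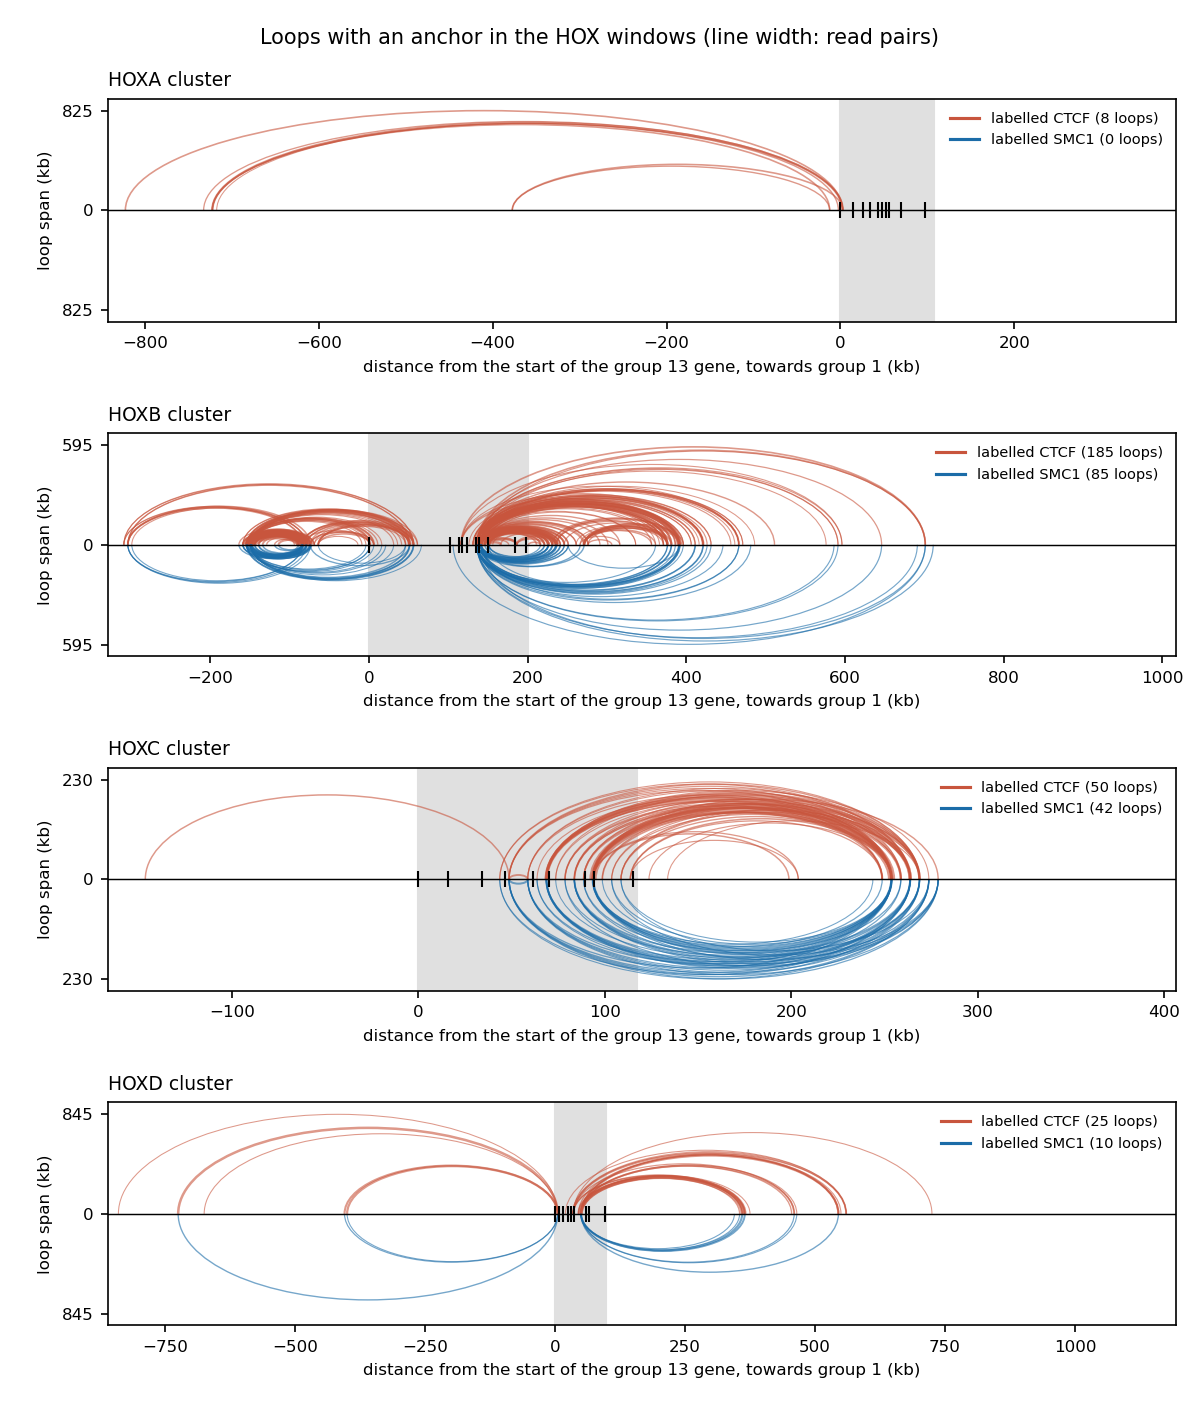
Loops with an anchor in each HOX window, drawn as arcs over the distance in kb from the start of the group 13 gene, with the list labelled CTCF above the line and the list labelled SMC1 below it. The grey band is the cluster, ticks mark canonical starts of HOX genes and line width grows with read pairs; HOXA loops run to the left of the cluster, HOXC loops almost all to the right, and HOXB and HOXD loops to both sides.

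Most loops with an anchor in a cluster left it, and few joined HOX genes to each other. In the list labelled SMC1 112 loops had 1 anchor between the first and the last gene of a cluster and 1 had both there, and in the list labelled CTCF these were 209 and 5. The loop found in both lists joined HOXC9 to HOXC10 over 10 kb, where the label SMC1 had 40 read pairs and the label CTCF 36. A loop labelled CTCF joined HOXB2 to HOXB4 over 35 kb with 50 read pairs against 19.6 expected, and was not matched in the other list. Only 1 loop labelled SMC1 and 2 labelled CTCF had a canonical HOX start within 1 kb of both anchors. No share over all loops was computed for stretches of this size. The clusters are 98.2 to 200 kb wide. Over the whole lists the median span was 125 kb for the label CTCF and 130 kb for the label SMC1.

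HOXA loops ran past the posterior end in every case. From the 5 kb bin in HOXA13, 5 loops labelled CTCF ran beyond the cluster, and 1 more did so from the next bin, which holds the HOXA13 start. The noncoding gene HOTTIP starts in the first of these bins. The loop with the most read pairs, 52 against 3.6 expected, spanned 725 kb to a bin that lay 183 kb from the nearest coding start, that of TAX1BP1. A loop of 29 read pairs spanned 825 kb to a bin 158 kb from the JAZF1 start, and another of 29 spanned 380 kb to a bin 85.4 kb from the HIBADH start. No HOXA loop was matched in the other list within 15 kb, and HOXA had no anchor in the list labelled SMC1.

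HOXB loops fell into 2 groups, those of the genes up to HOXB9 and those of the stretch from HOXB9 to HOXB13. From the bin with the HOXB5 start, which also holds the canonical start of HOXB3, 25 loops labelled SMC1 and 33 labelled CTCF ran to the group 1 side, with 572 and 927 read pairs. The neighbouring bin between HOXB4 and HOXB5 sent 16 and 30 loops the same way, with 392 and 1015 read pairs. The loop with the most read pairs from the latter bin had 143 against 19.9 expected in the list labelled CTCF and 58 against 9.56 in the list labelled SMC1, over 95 kb. The strongest loop from the HOXB5 bin had 141 read pairs against 9.61 expected in the list labelled CTCF, and 61 against 6.82 in the list labelled SMC1. It spanned 255 kb to a bin 92.8 kb from the start of SKAP1, an adaptor gene of T cell signalling. The other group started in LINC02086 between HOXB9 and HOXB13, where 2 neighbouring bins sent 8 and 10 loops labelled CTCF to the group 13 side, and at HOXB13 itself with 5.

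The outer anchors of HOXB lay up to 509 kb from the cluster among loops labelled SMC1 and up to 499 kb among loops labelled CTCF. The bin at 499 kb, 10.5 kb from the start of COPZ2, was reached by 3 loops labelled CTCF and 2 labelled SMC1. On the group 13 side 18 loops labelled CTCF with 539 read pairs and 12 labelled SMC1 with 230 met bins near ATP5MC1. In all, 37 loops labelled CTCF with an anchor in the cluster ran to the group 13 side and 94 to the group 1 side, and 14 and 47 in the list labelled SMC1. The longest HOXB loops spanned 585 kb under the label CTCF, from the bin with the canonical HOXB7 start, and 595 kb under the label SMC1, from a bin in HOXB9.

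HOXC loops ran almost without exception past HOXC4. In the list labelled SMC1 41 of 42 loops with an anchor in the cluster had the outer anchor on the group 1 side, and in the list labelled CTCF 46 of 48. Of these, 41 and 43 ended in 1 stretch of bins around the start of SMUG1, a uracil-DNA glycosylase gene. The loop from the HOXC5 start to the bin 3.49 kb from the SMUG1 start had 191 read pairs against 12 expected in the list labelled CTCF, and 60 against 6.48 in the list labelled SMC1, over 160 kb. The loop from the HOXC8 bin to the same place had 86 read pairs against 9.29 expected. The inner anchors were many, since HOXC5 had 7 loops labelled SMC1 at its start, HOXC8 5, HOXC9 6 and HOXC10 8. The longest HOXC loops spanned 225 kb under the label CTCF and 230 kb under the label SMC1.

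HOXD loops parted near the HOXD13 end of the cluster. From the bin with the HOXD12 start, 3 loops labelled SMC1 and 5 labelled CTCF ran past HOXD13. The strongest of them had 55 read pairs against 2.21 expected over 730 kb, a ratio of 24.9, the highest of any HOX loop in the list labelled CTCF. It ended 186 kb from the ATP5MC3 start, and 2 more with 42 and 45 read pairs ended 315 and 310 kb from the start of LNPK. The longest HOXD loop, labelled CTCF, spanned 845 kb with 12 read pairs. From a bin between HOXD4 and HOXD8, in HOXD3, 7 loops labelled SMC1 and 10 labelled CTCF ran past HOXD1 instead. The strongest 2 labelled CTCF had 79 and 80 read pairs against 4.58 and 6.4 expected over 310 and 315 kb, towards bins 183 and 188 kb from the MTX2 start. The neighbouring bin with the HOXD3 gene-model start added 3 loops labelled CTCF in the same direction, and the bin with the HOXD8 start added 6. So did the bin between HOXD10 and HOXD11, the next towards HOXD13, with 1 loop of 540 kb and 13 read pairs.

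**Figure D4:**
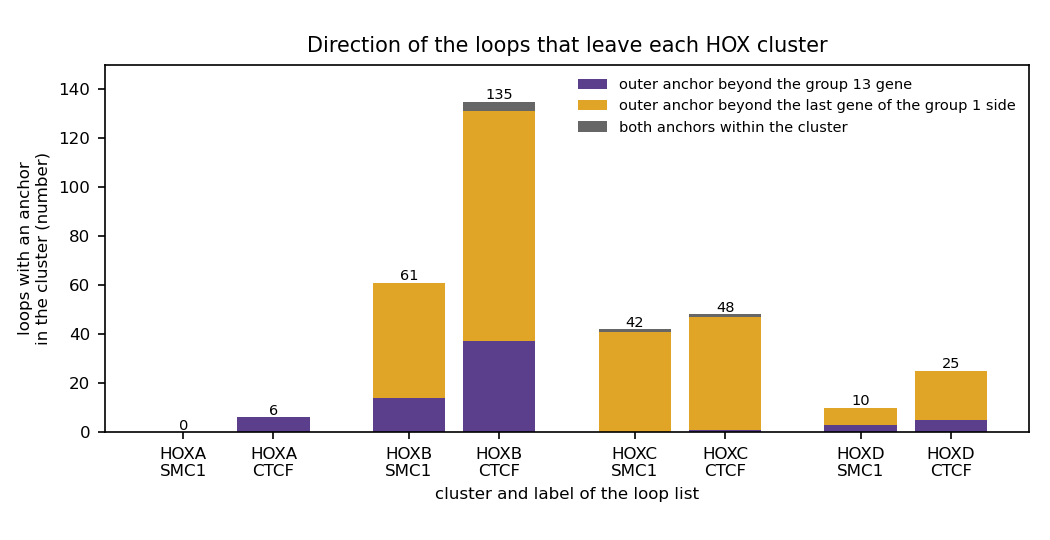
Number of loops with an anchor in each HOX cluster, by cluster and by label of the loop list, split by whether the outer anchor lies beyond the group 13 gene (violet), beyond the other end of the cluster (yellow) or within it (grey). All 6 HOXA loops are violet and 41 of 42 HOXC loops labelled SMC1 are yellow, while HOXB and HOXD hold both colours.

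HOX starts met loop anchors about as often as other genes. An anchor labelled SMC1 lay within 1 kb of 10 of 39 HOX starts, 25.6%, beside 21.6% of all protein-coding genes, and an anchor labelled CTCF at 17 of 39, 43.6%, beside 43.1%. The 10 genes were HOXB4, HOXC4, HOXB5, HOXC5, HOXC6, HOXC8, HOXC9, HOXC10, HOXD12 and HOXB13. The list labelled CTCF added HOXB2, HOXB3, HOXD3, HOXB6, HOXB8, HOXD8 and HOXA13. By cluster, anchors labelled SMC1 lay at 0 of 11 HOXA, 3 of 10 HOXB, 6 of 9 HOXC and 1 of 9 HOXD starts. Those labelled CTCF lay at 1 of 11, 7 of 10, 6 of 9 and 3 of 9.

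The direction of the loops was set beside that of the strong motifs. Bins that held a CTCF peak with a motif of at least 13 bits gave 94 loop ends in the list labelled SMC1, of which 68 belonged to loops that ran the way the motif points, 72.3% (95% interval 62.6 to 80.4), beside 82.4% over the whole list. In the list labelled CTCF the count was 110 of 152, 72.4% (64.8 to 78.9), beside 84.9%. The 94 ends came from only 15 bins, and the 152 ends from 17. Ends of the same bin share its motif and mostly run the same way, so they are not independent. Both intervals treat them as independent and cannot decide whether the HOX share differs from that of its whole list. In HOXD all 10 and all 21 loop ends ran along the motif, the HOXD12 to HOXD13 motif with its loops past HOXD13, and the motifs at HOXD8 and in HOXD3 with theirs past HOXD1. At the HOXB5 site all 25 and all 33 ran along it, at the HOXC8 to HOXC9 site all 5 and all 6 did, and at the HOXC5 to HOXC6 site all 7 and all 8.

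The exceptions stood mostly in 1 HOXB bin, where all 16 and all 30 loops ran against the motif. Without HOXB the shares were 71.9% and 85.7%. The rest of the exceptions in the list labelled SMC1 were chiefly 3 HOXC bins, between HOXC8 and HOXC11, whose motifs point towards HOXC13 while 9 of their 10 loops ran past HOXC4.

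By the best motif of each anchor, whether or not it lay under a CTCF peak, the motifs of both anchors pointed towards each other at 52 of 135 loops labelled SMC1, 38.5% (30.7 to 46.9), beside 45.4% of that list, and at 110 of 266 labelled CTCF, 41.4% (35.6 to 47.4), beside 44.1%. By the motif at CTCF summits they did so at 10 of 22 loops labelled SMC1, beside 43.4%, and at 14 of 26 labelled CTCF, beside 43.6%. By cluster, the share by best motif in the list labelled CTCF was 68% (48.4 to 82.8) at HOXD, beside the 44.1% of that list. It was 50% at HOXA, 40% at HOXC and 37.7% at HOXB, whose intervals held the 44.1%. In the list labelled SMC1 it was 60% of 10 loops at HOXD, 43.4% at HOXB and 23.8% (13.5 to 38.5) at HOXC, beside the 45.4% of that list. Loops from the same bin reuse its motif, and at HOXD 1 bin gave 10 of the 25 loops labelled CTCF. The loops are thus not independent, and these intervals cannot decide whether a cluster differs from its list.

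Within 15 kb at both anchors, the 2 loop lists shared most HOX loops. All 137 loops labelled SMC1 had a loop in the other list within 15 kb at both anchors, beside 91.7% of that list, and 212 of 268 labelled CTCF did, 79.1% (73.8 to 83.5), beside 53.4%. In the list labelled CTCF the matched share was 90% at HOXC, 84% at HOXD, 78.9% at HOXB and 0% of 8 loops at HOXA. In the same bins the shares were 78.1% for the label SMC1 and 39.9% for the label CTCF, with no share over all loops to set beside them. Neighbouring bins often held loops, and the part this played in matching within 15 kb was not tested. A peak of the labelled target lay at an anchor of 137 of 137 loops labelled SMC1 and 263 of 268 labelled CTCF. The loop caller of the authors keeps pairs of bins with a peak at an anchor, and no share over all loops was computed.

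**Figure D5:**
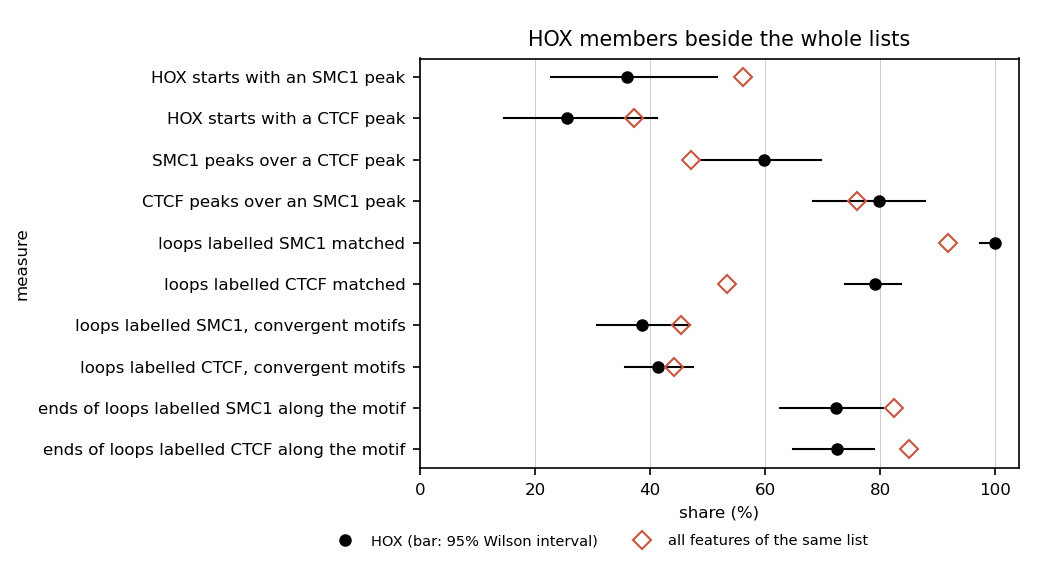
Shares (%) of HOX members (black points, bars for the 95% Wilson interval) beside the share over all features of the same list (red diamonds). HOX starts lie below the whole list for SMC1 peaks within 1 kb, 35.9 against 56.2, and HOX loops labelled CTCF lie above it in matching within 15 kb, 79.1 against 53.4.

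Noncoding genes of the clusters had an SMC1 peak at 6 of 15 starts, 40% (19.8 to 64.3), and a CTCF peak at 5, 33.3% (15.2 to 58.3), each of which also had SMC1. Both intervals held the shares of all protein-coding genes, 56.2% and 37.2%, and no share over all noncoding starts was computed. HOTAIRM1, HOXA10-AS, HOXB-AS1, HOXC-AS2 and HOXC-AS3 had both, and HOTAIR, a noncoding RNA of HOXC known to act with Polycomb, had an SMC1 peak alone of 4.05. HOTTIP, HAGLR, HAGLROS, HOXA-AS2, HOXA-AS3, HOXA11-AS, HOXB-AS3, HOXC-AS1 and HOXD-AS2 had neither. Of 11 other protein-coding starts in the windows, 4 had an SMC1 peak, 36.4% (15.2 to 64.6) beside 56.2% of all genes, and 1 a CTCF peak, 9.09% (1.62 to 37.7) beside 37.2%. Among them were EVX1, EVX2, SKAP2 and MTX2 with neither and LNPK with an SMC1 peak of 6.76.

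The genes of the HOX network lie elsewhere in the genome, and 17 of 24 of their starts had an SMC1 peak, 70.8% (50.8 to 85.1) beside 56.2% of all protein-coding genes. A CTCF peak lay at 7, 29.2% (14.9 to 49.2) beside 37.2%, and both intervals held the share of all genes. The Trithorax side, which keeps HOX genes active, had an SMC1 peak at 6 of 6 starts (interval 61% to 100%), from 2.12 at KMT2A to 5.21 at WDR5. The Polycomb side, which keeps them silent, also had one at 6 of 6, with the same interval, from 1.72 at BMI1 to 7.02 at RNF2. Of the HOX cofactors, homeodomain proteins that bind DNA together with HOX, 5 of 9 had one, 55.6%, close to the share of all genes, namely PBX3, PBX4, MEIS2, PKNOX1 and PKNOX2. Of the CDX genes, homeobox activators of HOX genes in the gut and trunk, 0 of 3 had a peak of either target.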

How the data were processed

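The HiChIP data of HG00731 for SMC1 (FA-EGS) and CTCF were used as 1 peak list and 1 loop list per target, each from 2 pooled replicates. Reads were mapped by the authors to hg38 with BWA-MEM, and the authors, per the labels, used bcl2fastq 2.17, MACS3 3.0.1 and deepTools. The deposited fold enrichment is a ratio of summit signal to what the sample itself gives nearby, as no input was used, and the deposited significance is the -log10 of the MACS3 q-value. Each loop has a deposited count, not normalised, of the read pairs that join 2 bins of 5 kb, and the number that the MAPS regression of the authors expects. The deposited false discovery rate (a q-value) and the -log10 P of each loop cluster were not used. Reads per library are not in the lists. The study gives more reads in total for SMC1 than for CTCF in HG00731, so the targets also differ in depth. Summed over loops, the read pairs came to 788356 under the label SMC1 and 2666327 under the label CTCF.

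The members and lists were chosen with earlier results of these data known. The HOX genes were named, with the CTCF peaks within the clusters in numbers, the 3 strongest peaks of each window, the strongest and longest loops of each cluster, and the coding start nearest to each outer anchor. Overlaps needed 1 bp, starts a peak within 1000 bp, and matched loops a distance of at most 15 kb at each anchor. Of the items so chosen, 1 HOX gene, 1 B cell gene and 1 motif sequence are not reported here. The B cell genes, the search of whole peaks at 13 bits and the share of loop ends that run the way a motif points were added after seeing the data. The motif was learned by expectation maximization from 50 bp on either side of the summits, against control sequences taken 1000 bp away, and this step was tested on simulated data. The scripts ran under Python 3.11.15 with pandas 2.3.3, NumPy 2.4.6 and SciPy 1.17.1 for the tables, pysam 0.24.0 for the genome, Numba 0.67.0 for the motif scan and Matplotlib 3.10.9 for the plots. Alternatives were stricter q-values, other flanks, start windows, overlap rules, motif minimums and tolerances.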

Additional observations from a re-analysis of the deposited data

How the results depend on the processing

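No paired analysis was possible because both replicates of a target were pooled into 1 list, and leaving out a replicate was likewise not possible. Counts were judged by a factor of 1.5 and shares by the 95% interval of the value in the report, and by these 36 of 63 alternatives stayed and 27 moved further. With peaks of a -log10 q of at least 10, the windows held 54 SMC1 and 35 CTCF peaks, and 9 and 6 HOX starts had a peak. With starts taken to 2500 bp these were 24 and 22, and the interval of the SMC1 share then held that of all genes. A flank of 200 kb gave 97 CTCF peaks, and no flank gave a share of 74% of SMC1 peaks over CTCF peaks. The share of CTCF peaks with a motif was 26.6% at 10 bits, 12.5% at 13 bits and 84.4% at 7 bits over the whole peak. With both anchors in a window there were 23 loops labelled SMC1 and 62 labelled CTCF, and with at least the median read pairs 58 and 133. The matched shares were 78.1% and 39.9% in the same bins and 92% and 69.4% at a tolerance of 5 kb. A peak of the labelled target lay at both anchors of 71.5% and 56%, and at an anchor of 100% of loops labelled CTCF when the lists were exchanged. Convergent motifs of at least 13 bits were found at 47.9% and 48.7%. In the list labelled CTCF the convergent share was 53.8% with motifs at CTCF summits and 49.4% without HOXB, and the share of loop ends along the motif was 85.7% without HOXB. The alternatives without HOXB and at canonical starts were chosen after seeing the data. The main limits are the single pooled list per target, the labels of the loop lists and the 5 kb bins, which hold more than 1 start or motif.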

Other observations

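The HOX loop with the most read pairs did not touch a HOX gene. It joined a bin 4.73 kb from the TTLL6 start, in the flank beyond HOXB13, to a bin 15.3 kb from the ATP5MC1 start, over 65 kb, with 303 read pairs against 35.3 expected in the list labelled CTCF and 111 against 21.6 in the list labelled SMC1. Of the loops in the HOXB window, 50 labelled CTCF and 24 labelled SMC1 had no anchor between HOXB1 and HOXB13. At the other clusters such loops were 2 at HOXA and 2 at HOXC in the list labelled CTCF.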
